A study of Rattus norvegicus with 35 samples.

Results

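The comparison described here is that of the low dose of ketoconazole with its vehicle in rat liver after 3 and after 14 days of dosing. Its members are 11 of the 35 small RNA libraries of the study, taken by their labels: 3 low dose and 3 control libraries of day 3, and 3 low dose and 2 control libraries of day 14, each day being matched to its own control. All animals were male Sprague-Dawley rats, 6 weeks old at the start. The low dose groups received ketoconazole by mouth at 10 mg/kg per day, the controls received 0.5% methylcellulose, the vehicle, for the same number of days, and the liver was collected 24 h after dosing ended. For comparison, high dose livers (100 mg/kg per day, 3 libraries on each of days 3 and 14), middle dose livers (30 mg/kg per day, 3 libraries on each day) and the low dose and control livers of day 7 (3 libraries each) were used. Whether the numbered libraries of a group come from different rats is not stated, so the p-values below measure the spread between these libraries, which may be technical.

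Ketoconazole is an azole antifungal that blocks a cytochrome P450 step in sterol synthesis and can cause liver injury as a side effect. MicroRNAs (miRNAs) are short RNAs that guide Argonaute proteins to messenger RNAs, mainly through pairing of the seed near their 5′ end, and lower the output of those messengers. Each is cut from a hairpin with a 5p and a 3p arm. Liver miRNAs are studied as markers of drug injury because they leak into blood when hepatocytes die, and because some change inside the tissue under toxic stress. The study looked for miRNAs of this kind, and the low dose is the lowest exposure in it.

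The sequences below are the mature forms of the miRNAs on which the results turn, from RefSeq (GRCr8), written 5′ to 3′ with the seed, bases 2 to 8, in capitals. A RefSeq entry of the same name was found for 686 of 763 miRNA rows and for 292 of the 328 tested. The first 6 are shown because they were far higher or lower in high dose than in low dose livers, and their low dose levels are set beside that gap.
miR-22-5p: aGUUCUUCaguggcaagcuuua
miR-128-3p: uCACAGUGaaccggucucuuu
miR-191a-5p: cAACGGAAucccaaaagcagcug
miR-322-3p: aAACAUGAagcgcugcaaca
miR-28-3p: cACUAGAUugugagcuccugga
miR-363-3p: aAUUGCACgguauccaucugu
The 6 seeds shown are all different. The next 3 belong to the let-7 family, 9 tested members of which share the seed GAGGUAG. They are shown because the family lay slightly below control on day 3.
let-7c-5p: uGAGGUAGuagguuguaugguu
let-7f-5p: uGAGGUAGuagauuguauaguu
miR-98-5p: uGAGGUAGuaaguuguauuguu
The last 4 are miRNAs that were lower on day 14 than on day 3 when averaged over low dose and control livers. The first 3 come from the Dlk1-Dio3 imprinted cluster and have seeds that differ from one another. The seed of miR-15b-5p is also that of miR-16-5p, miR-195-5p, miR-322-5p and miR-497-5p.
miR-136-3p: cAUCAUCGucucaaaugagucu
miR-411-5p: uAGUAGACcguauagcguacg
miR-434-3p: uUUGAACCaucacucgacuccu
miR-15b-5p: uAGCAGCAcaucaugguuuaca

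The 11 libraries held 3177390 to 4367572 counts each, with a median of 3873690, and 407 to 463 miRNAs were detected per library. The 10 most abundant miRNAs took 70.2% to 72.9% of the counts. They were led by miR-192-5p, a hepatocyte miRNA, at a mean of 18.8% and miR-22-3p at 16.1%. miR-122-5p, which defines hepatocytes, held 3.84%, so hepatocyte miRNAs were abundant in these libraries. Of the hepatocyte-abundant list, miR-885-5p had no row in the counts, and no other member was at 0 in every library of a group. Levels are given as CPM, read counts relative to the TMM-scaled library size. Changes are log2 fold changes from edgeR's quasi-likelihood test with their standard error (SE), and the threshold is a Benjamini-Hochberg adjusted p of 0.05 over the 328 miRNAs tested.

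No miRNA passed the threshold between low dose and control, either on day 3 or on day 14. The share of the 328 miRNAs past the threshold was 0% on each day, with 25 miRNAs (7.62%) at an unadjusted p under 0.05 on day 3 and 11 (3.35%) on day 14. DESeq2 on the same counts also called 0 on each day, for the average of the days and for their difference. The smallest adjusted p was 0.313 on day 3 and 0.993 on day 14. The average of both days, which uses all 11 libraries, gave 0 calls and 16 miRNAs (4.88%) at an unadjusted p under 0.05, with a smallest adjusted p of 0.825. The difference between the day 14 and the day 3 effect gave 0 calls, 14 miRNAs (4.27%) at an unadjusted p under 0.05 and a smallest adjusted p of 0.849.

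These counts have a stated precision. The 95% interval of the log2 fold change lay wholly within a 2-fold change either way for 250 of 328 miRNAs (76.2%) on day 3 and 229 (69.8%) on day 14. Among the 122 miRNAs with a mean of at least 100 CPM in the 11 libraries, this held for 119 on day 3 and 116 on day 14. For the average of both days, 119 of these 122 intervals lay within 1.5-fold. Below 10 CPM the interval lay within 2-fold for only 28 of 87 miRNAs on day 3 and 17 of 87 on day 14. A 2-fold change in a scarce miRNA was thus mostly not resolvable.

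**Figure D1:**
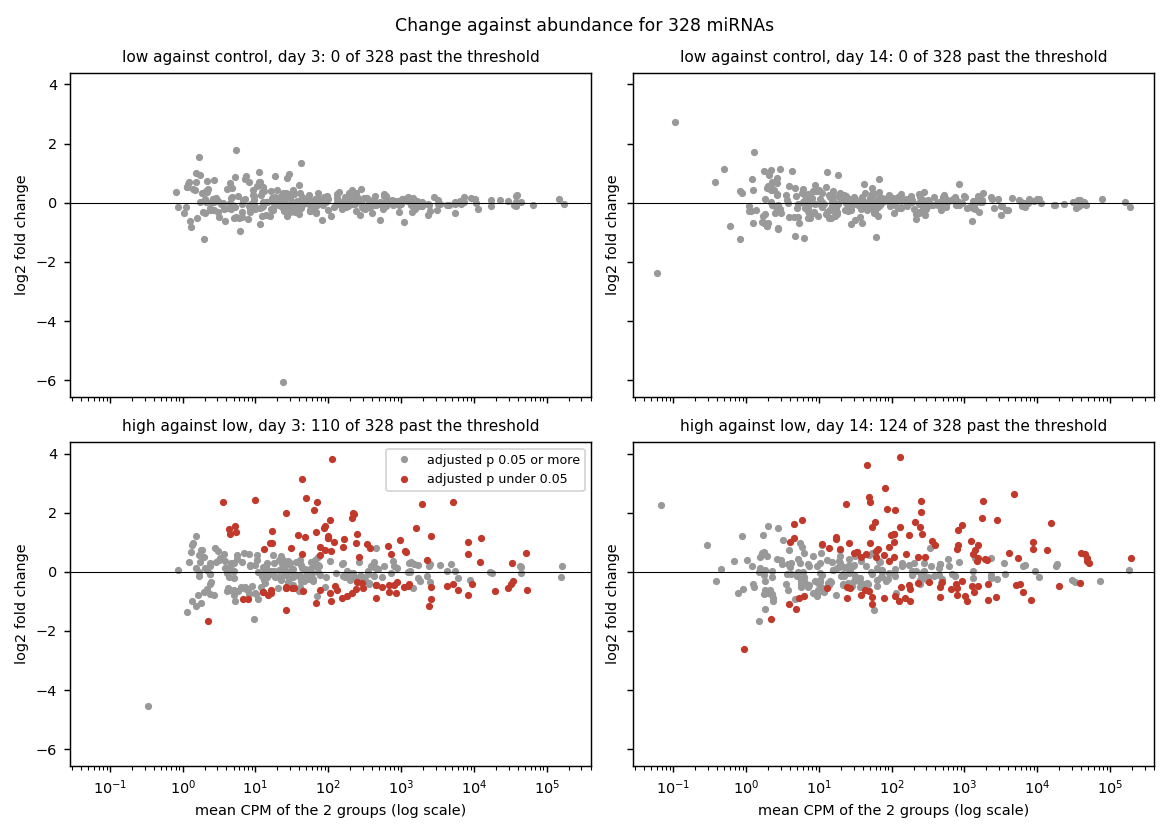
Log2 fold change (vertical axis) against mean CPM of the 2 groups compared (horizontal log axis) for 328 miRNAs, 1 point each, low dose against control above and high against low dose below. No point passes the adjusted p of 0.05 in the upper panels, against 110 and 124 in the lower ones, which are drawn on the same axes.

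Low dose and control libraries of a day were about as far apart as libraries of one group. Measured as the median absolute log2 difference over miRNAs, the distance between a low dose and a control library had a median of 0.27 over 9 pairs on day 3 and 0.23 over 6 pairs on day 14, while pairs within a group ranged from 0.19 to 0.37. Between high and low dose libraries the median distance was 0.42 on day 3 and 0.50 on day 14. In a principal component analysis of the 11 libraries, the first component (26.2% of the variance) put all 5 day 14 libraries at 1.57 or above and all 6 day 3 libraries at 0.87 or below. It did not separate the doses.

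Some of the members of the low dose comparison that lay low in p are given as measurements, since none passed the threshold. The smallest adjusted p on day 3 was 0.313 at 10 to 100 CPM, 0.357 at 100 CPM or more and 0.357 below 10 CPM. These are all smaller than that of miR-582-3p, which is given first. On day 3, miR-582-3p measured 22.6, 21.3 and 28.6 CPM in controls and 74.8, 53.1 and 54.4 CPM in low dose livers. These groups did not overlap, and its log2 difference was 1.33 ± 0.47 (SE; adjusted p 0.533). On day 14 the order was the other way, with 28.9 and 44.2 CPM in controls and 22.4, 22.7 and 22.2 CPM in low dose livers, and again no overlap. The difference between the 2 days was -2.04 ± 0.70 on the log2 scale, with an adjusted p of 0.849. Its other arm, miR-582-5p, which is processed from the same hairpin, differed by 1.04 ± 0.38 on day 3 and by -0.17 ± 0.46 on day 14. When only the libraries of the groups contrasted were fitted, miR-582-3p passed on day 3, at 1.30 with an adjusted p of 0.0412.

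Among miRNAs below control on day 3, the lowest p after miR-871-3p belonged to miR-150-5p, a lymphocyte miRNA. It measured 428, 517 and 887 CPM in controls and 440, 369 and 405 CPM in low dose livers. Control replicate 3 stood high, the remaining controls overlapped the low dose group, and the difference of -0.59 ± 0.19 was -0.23 without that library. miR-182, an miRNA of the miR-183 cluster that is linked to sterol regulation, measured 1312, 1641 and 1084 CPM in controls and 1098, 676 and 811 CPM in low dose livers, a difference of -0.64 ± 0.21 with overlapping groups. The value for miR-871-3p, -6.05 ± 1.53, came from raw counts of 0, 14 and 588 in controls and 7, 2 and 0 in low dose livers. It rested on 1 control library. miR-378a-3p, an abundant miRNA hosted by a gene of mitochondrial metabolism, was higher by 0.28 ± 0.12.

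On day 14 several of the lowest p-values had 1 control in common. miR-455-3p measured 141 and 43.0 CPM in controls and 41.5, 35.8 and 46.7 CPM in low dose livers (-1.15 ± 0.41). miR-142-5p, an miRNA of blood cells, measured 2067 and 1113 CPM in controls and 1103, 1058 and 960 CPM in low dose livers (-0.61 ± 0.23). miR-146a-5p, which dampens inflammatory signalling, measured 334 and 201 CPM against 205, 178 and 161 CPM (-0.56 ± 0.24). In each the higher control was replicate 1, and the other control lay inside or close to the low dose range. The white blood cell markers had 5 of 7 members below 0 with a median of -0.28, and without this control library 4 of 7 were above 0 with a median of 0.15. Their summed level was 1894 and 3110 CPM in the 2 controls and 1794 to 2116 CPM in low dose livers. In bulk tissue, fewer cells of a type and less RNA per cell cannot be told apart.

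miR-200b-3p, an epithelial miRNA that in liver marks bile duct cells, was not tied to that library. It measured 657 and 605 CPM in controls and 1102, 905 and 942 CPM in low dose livers on day 14, groups that did not overlap, and differed by 0.64 ± 0.26 (adjusted p 0.993). On day 3 it measured 1215, 961 and 966 CPM in controls and 1017, 755 and 775 CPM in low dose livers, a difference of -0.30 ± 0.22. Of the 7 tested members of the miR-200 family list, 6 were above 0 on day 14 with a median of 0.39 and 6 were below 0 on day 3 with a median of -0.15, against medians of -0.0018 and 0.01 over all tested miRNAs. None of them passed. The day 3 median was 0.01 without low dose replicate 2.

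By sign, a shared direction on both days was about as frequent as opposite directions. The log2 differences had the same sign on days 3 and 14 for 165 of 328 miRNAs (50.3%), and none reached an unadjusted p under 0.05 on both days. The low dose and control groups did not overlap for 43 miRNAs (13.1%) on day 3 and 67 (20.4%) on day 14, where only 2 controls had to be cleared. Groups apart in the same direction on both days were found for 7 miRNAs (2.13%). The 5 higher ones were let-7b-3p, miR-1306-5p, miR-152-5p, miR-30d-3p and miR-331-3p, and the 2 lower ones were let-7f-5p and miR-98-5p. These 7 were chosen for this pattern, so their values are a description.

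Of the 7, miR-152-5p had the lowest p for the average of both days. It measured 14.6, 14.9 and 20.7 CPM in day 3 controls, 24.3, 22.1 and 21.7 CPM in day 3 low dose livers, 13.4 and 13.0 CPM in day 14 controls and 16.1, 17.4 and 19.0 CPM in day 14 low dose livers. Every low dose library of a day was above every control of that day. The average difference was 0.42 ± 0.15 (adjusted p 0.825), a small step beside its high against low dose difference of 0.80 ± 0.18 on day 3 and 0.98 ± 0.19 on day 14, which passed on both days. let-7b-3p and miR-30d-3p differed by 0.26 ± 0.13 and 0.32 ± 0.12 on average. let-7f-5p, one of the more abundant let-7 forms, ran from 17562 to 17933 CPM in day 3 controls and from 15882 to 17288 CPM in low dose livers, a difference of only -0.09 ± 0.11.

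let-7 miRNAs hold back growth and developmental programs and are abundant in adult liver. On day 3 all 9 tested members sharing the seed shown above were below 0, with a median log2 difference of -0.19 against 0.01 for all tested miRNAs, of which 50.6% were above 0, and 6 of the 9 had groups that did not overlap (background 13.1%). None passed the threshold, and the lowest p belonged to let-7c-5p. That member measured 6693, 6403 and 5566 CPM in controls and 5545, 4411 and 4810 CPM in low dose livers, a difference of -0.34 ± 0.16 (adjusted p 0.606). The summed level of the family was 48858 to 50588 CPM in controls and 42959 to 47173 CPM in low dose livers. On day 14 the family was split, with 5 members above and 4 below 0 and a median of 0.02. The day 3 sign held for all 9 members with DESeq2's size factors and with library size alone, and for 8 of 9 without low dose replicate 2. Members of a family this similar may share reads, and how such reads were assigned is not given in the sources used here.

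**Figure D2:**
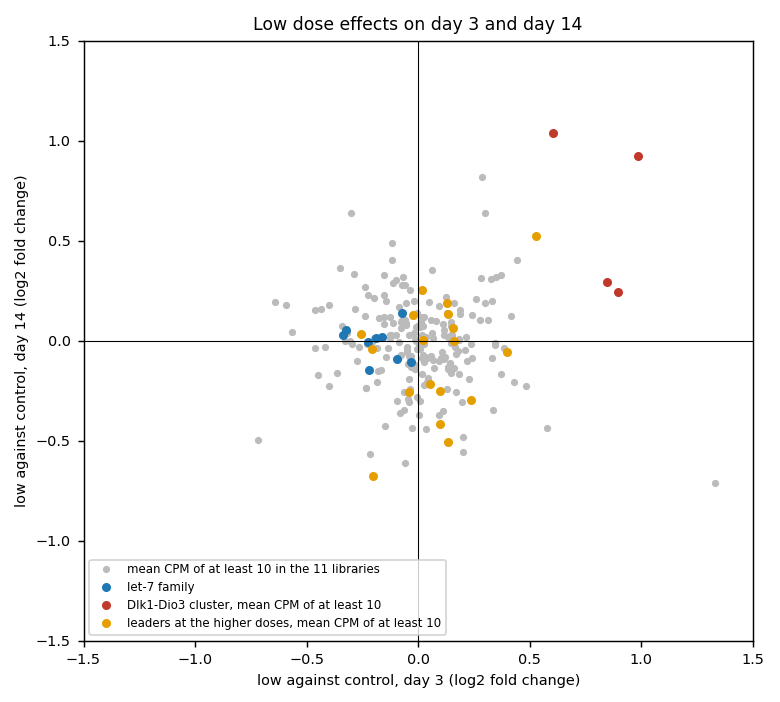
Low dose against control on day 3 (horizontal axis) and day 14 (vertical axis), both as log2 fold changes, 1 point per miRNA with a mean of at least 10 CPM in the 11 libraries. The let-7 members lie left of 0 on day 3 and around 0 on day 14, the 4 Dlk1-Dio3 members shown lie above 0 on both days, and 1 miRNA (miR-871-3p) lies outside the axes.

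The 5 miRNAs chosen as linked to liver injury, a choice made with earlier results of these data known, did not pass between low dose and control on either day. miR-122-5p, the dominant hepatocyte-specific miRNA, measured 39395, 38884 and 32720 CPM in day 3 controls and 40316, 31930 and 33020 CPM in low dose livers. Its log2 difference was -0.08 (95% interval -0.37 to 0.22) on day 3 and 0.09 (-0.24 to 0.42) on day 14. miR-192-5p differed by -0.03 and -0.13, and miR-21-5p, which rises in many injured tissues, by -0.07 and 0.13. miR-34a-5p, a p53 target, measured 18.4, 29.3 and 22.4 CPM in day 3 controls and 24.8, 19.6 and 24.0 CPM in low dose livers. It differed by -0.04 (-0.66 to 0.58) on day 3 and 0.25 (-0.51 to 1.01) on day 14. These intervals are wider than those of miR-122-5p on both days, and the day 14 interval of miR-34a-5p does not exclude a 2-fold rise.

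miR-331-3p was the one of these 5 with groups apart on both days. Controls measured 39.3, 42.2 and 27.6 CPM on day 3 and 34.2 and 41.2 CPM on day 14, and low dose livers 44.4, 43.6 and 50.9 CPM and 49.9, 49.1 and 42.2 CPM. The differences were 0.35 (-0.21 to 0.90) and 0.32 (-0.31 to 0.95), neither past the threshold. In high against low dose livers it rose by 1.55 ± 0.27 on day 3 (adjusted p 3.68e-05). The day 14 difference was 0.71 ± 0.27 (adjusted p 0.0378), a call that held under only 1 of 13 alternative settings. It was lost with DESeq2 (0.64, adjusted p 0.0534) and in 5 of 6 fits that left out a library, with a value of 0.23 without high dose replicate 1. miR-34a-5p rose by 1.24 ± 0.30 on day 3 (adjusted p 0.00164), and miR-122-5p fell by 0.53 on the log2 scale on day 3 (adjusted p 0.00469). On day 14 the difference of miR-34a-5p was 0.75 and did not pass. That of miR-122-5p was -0.35 with an adjusted p of 0.052, close to the threshold, and it passed under 11 of 13 alternative settings, DESeq2 (-0.42, 0.0271) and library size alone (-0.57, 0.000849) among them. miR-21-5p was lower by -0.60 on day 3 (adjusted p 0.0123). Its call was lost without high dose replicate 1 (-0.43), high dose replicate 3 (-0.54) or low dose replicate 3 (-0.54), and with no low-count filter (-0.48).

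**Figure D3:**
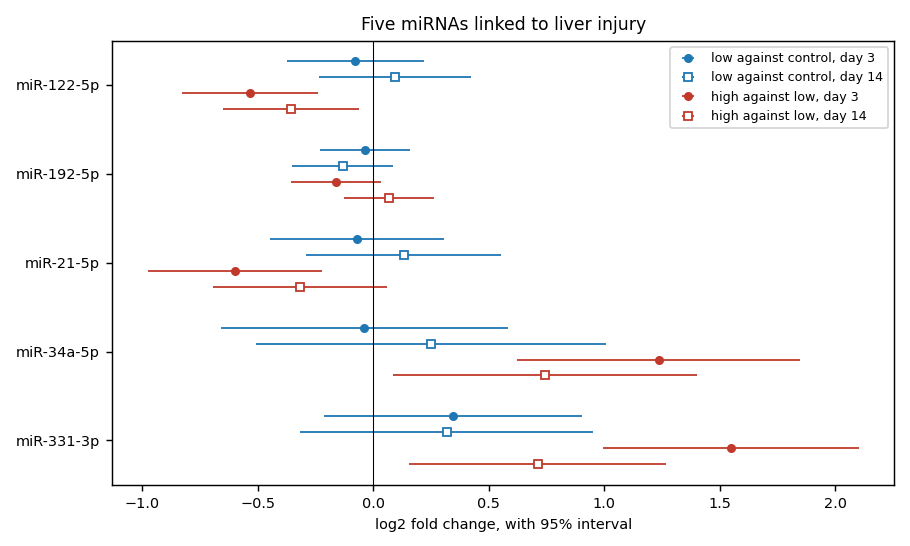
Log2 fold change with 95% interval (horizontal axis) for the 5 miRNAs chosen as linked to liver injury, low dose against control in blue and high against low dose in red. Day 3 is shown as filled circles and day 14 as open squares. All 10 blue intervals include 0, while on day 3 the high against low dose interval of miR-331-3p runs from 0.995 to 2.10.

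High dose livers differed from low dose livers in a comparison that involves no control. Past the threshold were 110 of 328 miRNAs on day 3 (33.5%; 58 higher and 52 lower) and 124 on day 14 (37.8%; 77 higher and 47 lower). Of these, 82 were called on both days, all with the same sign, which is 74.5% of the day 3 calls and 66.1% of the day 14 calls. On day 14 the share of higher calls was 62.1%, and it was 38.7% with library size alone, which moved the median of all miRNAs to -0.18. Over all 35 libraries the first principal component put the low dose and control libraries of days 3 and 14 between -9.85 and -4.32. The day 7 low dose libraries and all middle and high dose libraries lay between 4.24 and 6.47. The labels name no batch, so a technical difference between these 2 sets of libraries and the dose cannot be told apart.

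Beside this gap the low dose levels lay near those of control. miR-22-5p, the minor arm of the hairpin that gives miR-22-3p, measured 10.7, 9.99 and 13.6 CPM in day 3 controls, 11.8, 18.6 and 14.7 CPM in low dose livers and 205, 205 and 224 CPM in high dose livers. On day 14 it measured 19.3 and 15.1 CPM in controls, 16.1, 18.4 and 15.05 CPM in low dose livers and 280, 231 and 221 CPM in high dose livers. It rose by 3.81 ± 0.25 on day 3 (adjusted p 2.09e-13) and 3.88 ± 0.25 on day 14 between low and high dose, while low dose and control overlapped and differed by 0.40 (-0.13 to 0.93) and -0.05 (-0.63 to 0.52). miR-191a-5p ran from 1206 to 2112 CPM in day 3 low dose livers, 1402 to 2059 CPM in controls and 8452 to 8987 CPM in high dose livers. Its rise between low and high dose was 2.37 ± 0.18 on day 3 and 2.64 ± 0.19 on day 14.

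miR-322-3p rose by 2.35 ± 0.19 and 2.85 ± 0.20 from low to high dose on days 3 and 14, and miR-28-3p by 2.29 ± 0.19 and 2.40 ± 0.19. Low dose and control differed by 0.13 and 0.19 for miR-322-3p, and by 0.14 and 0.13 for miR-28-3p. miR-128-3p came nearest to a low dose difference on day 3, at 4.12, 4.22 and 7.15 CPM in controls and 4.91, 11.2 and 10.97 CPM in low dose livers (0.80 ± 0.38, adjusted p 0.606). Its groups overlapped and the day 14 difference was 0.29 ± 0.46. Of the miRNAs that fell from low to high dose, miR-363-3p was lower by -1.28 ± 0.26 on day 3 and -0.89 ± 0.27 on day 14. Between low dose and control its day 14 difference was -0.68 ± 0.27 (adjusted p 0.993), which did not pass, and the groups overlapped. Controls measured 72.0 and 30.7 CPM and low dose livers 34.4, 33.4 and 28.2 CPM. That difference was 0.01 without control replicate 1.

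The 20 miRNAs that led the differences at the middle and high doses were listed from earlier results of these same libraries. Their low dose values are therefore given as a description. On day 3, 15 were above and 5 below 0 with a median of 0.11, and on day 14, 9 were above and 11 below with a median of -0.01. The interval excluded a 2-fold change for 17 of the 20 on day 3 and 16 on day 14.

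**Figure D4:**
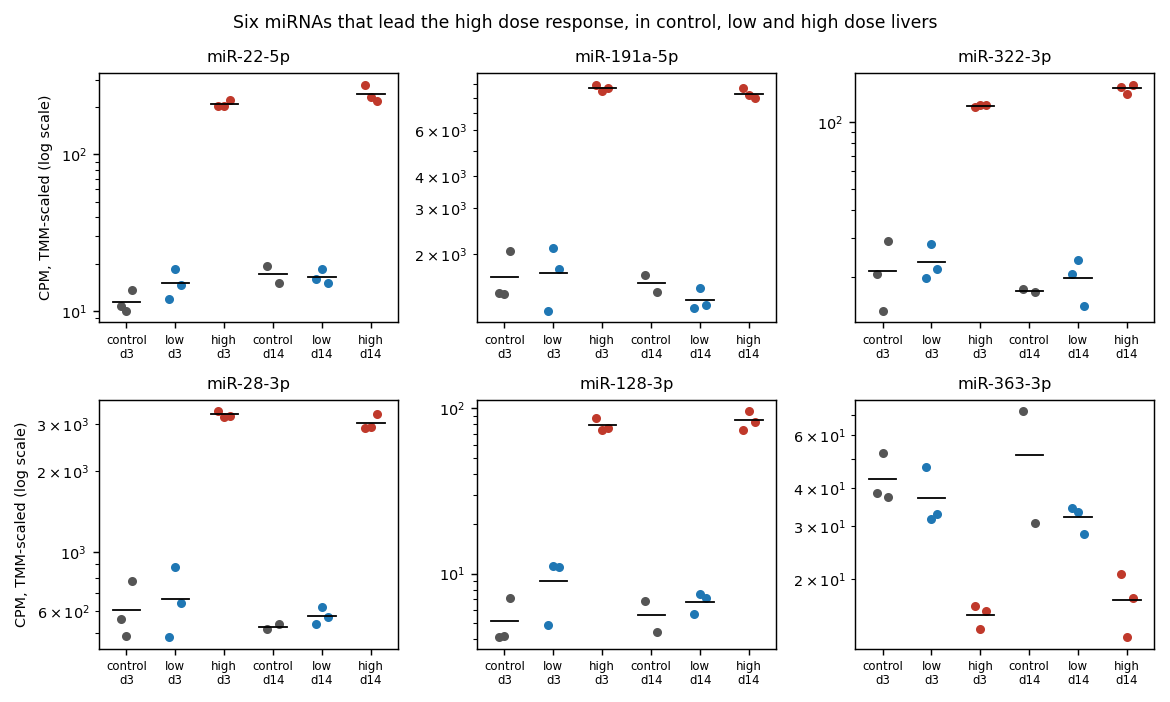
CPM on a log vertical axis for 6 miRNAs in control, low and high dose libraries of days 3 and 14, with 1 point per library and a bar at the group mean. Low dose and control points overlap on day 3 in all 6 panels, and high dose points stand above them for 5 miRNAs (miR-22-5p at 205 to 280 CPM) and below for miR-363-3p.

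On day 7 the low dose effect differed from that of days 3 and 14 for many miRNAs. The low dose effect on day 7 minus its average on days 3 and 14 passed for 123 of 328 miRNAs (37.5%), 76 higher and 47 lower. miR-191a-5p measured 10876, 10215 and 10329 CPM in day 7 low dose livers and 1435, 997 and 979 CPM in day 7 controls, so the groups were far apart where those of days 3 and 14 overlapped. Its difference of effects was 3.28 ± 0.22 (adjusted p 5.72e-13). Leaving out 2 outlying day 7 controls leaves a single control library of that day, and values from that fit are given below as effect sizes. The day 7 low dose libraries belong to the set at the positive end of the component described above.

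Within the low dose and control livers, some miRNAs passed between the days. Between day 14 and day 3, averaged over low dose and control, 6 of 328 miRNAs passed (1.83%), all lower on day 14. The Dlk1-Dio3 cluster, a group of imprinted miRNA genes that is most active before birth, held 4 of the 6. miR-136-5p fell by 2.14 ± 0.42 on the log2 scale (adjusted p 0.00619), miR-434-3p by 1.91 ± 0.43 (0.00871), miR-136-3p by 1.87 ± 0.41 (0.00861) and miR-411-5p by 1.78 ± 0.37 (0.00695). The others were miR-335, which fell by 0.66 ± 0.14 (0.00695), and miR-15b-5p, a member of the miR-15/16 seed family, which fell by 0.52 ± 0.14 (0.0437). Rats were 6 weeks old at the start, and age, days of dosing or vehicle and the day of collection change together, so they cannot be told apart.

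miR-411-5p measured 14.3, 53.7 and 25.5 CPM in day 3 controls, 46.0, 35.2 and 61.4 CPM in day 3 low dose livers, 9.49 and 6.28 CPM in day 14 controls and 7.91, 19.8 and 20.6 CPM in day 14 low dose livers. Every control of day 3 was above both controls of day 14, and every low dose library of day 3 above all low dose libraries of day 14. miR-136-5p showed the same order of days at lower levels, with 5.34 to 14.2 CPM in day 3 controls and 1.79 and 2.09 CPM in day 14 controls. Its low dose levels were 6.75 to 18.1 CPM on day 3 and 1.36 to 4.004 CPM on day 14. Day 3 control replicate 2 held the highest control value of each of the 4 cluster miRNAs.

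The remaining cluster members went the same way. Of 19 members listed, 8 passed the low-count filter and all 8 were below 0 on day 14, with 4 past the threshold and a median of -1.82 against -0.05 for all tested miRNAs, of which 40.5% were above 0. Since a filter on low counts keeps a scarce miRNA through the day on which it is higher, this count does not stand for all 19. All 17 listed members with a RefSeq gene lie between Dlk1 and Dio3 in the order of genes of GRCr8. Leaving out a control of day 14 leaves 1 library in that group. Without replicate 1 the 4 values were -2.04, -1.95, -1.83 and -1.89 in the order given above. Without replicate 2 they were -2.14, -1.76, -1.81 and -1.58. In controls alone they were -2.11, -1.63, -1.54 and -1.995, with adjusted p of 0.201 to 0.507, and none passed. In the low dose alone, miR-434-3p (-2.18, adjusted p 0.0503) and miR-411-5p (-1.56, 0.168) did not pass, while miR-136-5p and miR-136-3p kept their calls. Without control day 3 replicate 2, miR-434-3p at -1.47 and miR-136-3p at -1.36 did not pass. For miR-335 the values were -0.69 and -0.53 without replicate 1 or replicate 2 of the day 14 controls. It did not pass in controls alone (-0.75, adjusted p 0.201) or in the low dose alone (-0.57, 0.21). miR-15b-5p kept its call in 2 of 11 fits that left out a library, with values from -0.62 to -0.36, and lost it under 8 of the 10 other settings. In controls alone miR-15b-5p was at -0.72 (adjusted p 0.201) and in the low dose alone at -0.31 (0.587), neither past the threshold. The test of whether these 6 changes differed between low dose and control gave adjusted p of 0.972 to 0.994.

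The same contrast in middle and high dose livers used 12 other libraries and was added after the data were examined. There 32 miRNAs passed (9.76%), 17 higher and 15 lower, and 5 of the 6 above were among them with the same sign. miR-136-5p fell by 2.43 ± 0.41, miR-136-3p by 2.31 ± 0.38, miR-434-3p by 2.10 ± 0.36 and miR-411-5p by 2.04 ± 0.34 (adjusted p 0.000246 each), and miR-15b-5p fell by 0.48 ± 0.13 (0.0137). miR-335 was the exception, at -0.12 ± 0.13 (adjusted p 0.739). In the cluster, 7 of 8 tested members passed, all lower. The same low-count filter kept these 8, so this count does not stand for all listed members. One of the 7, miR-127-3p (-1.04, adjusted p 0.0432), lost its call in 8 of 12 fits that left out a library (-1.03 to -0.91), with no low-count filter and with only the libraries contrasted. With library size alone no call of this contrast was higher, and the median of all miRNAs moved to -0.20.

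**Figure D5:**
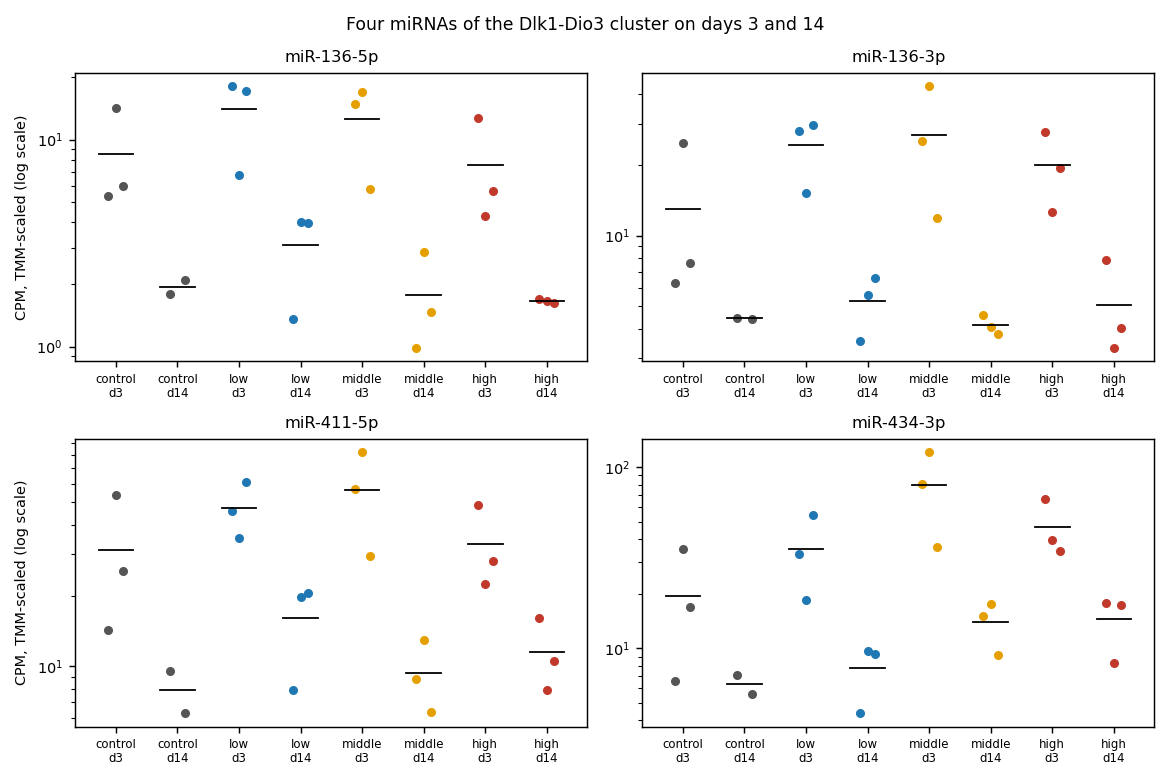
CPM on a log vertical axis for 4 Dlk1-Dio3 miRNAs in control, low, middle and high dose libraries of days 3 and 14, 1 point per library and a bar at the group mean. In each dose group the day 14 libraries lie below those of day 3, apart from a control of day 3 (miR-434-3p at 6.64 CPM) that lies below a control of day 14.

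Between low dose and control, the 8 tested cluster members were all above 0 on both days, with medians of 0.78 on day 3 and 0.89 on day 14, and none passed. These 8 are those kept by the low-count filter, so the count does not stand for all listed members. Of all tested miRNAs, 50.6% were above 0 on day 3 and 49.1% on day 14. miR-127-3p measured 16.3, 15.8 and 25.5 CPM in day 3 controls and 30.2, 56.8 and 26.8 CPM in low dose livers, groups that did not overlap (0.98 ± 0.45, adjusted p 0.606). On day 14 controls measured 13.4 and 10.2 CPM and low dose livers 9, 33.4 and 24.6 CPM, with overlap (0.92 ± 0.54). No interval of these 8 lay within 2-fold on either day. The summed level of the cluster was 55.8 to 157 CPM in day 3 controls and 144 to 209 CPM in low dose livers. The members lie in one locus and are not independent.

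The miR-29 family, which restrains collagen and other matrix genes, lay the other way in time. miR-29a-3p measured 2390, 1922 and 2742 CPM in day 3 controls and 1970, 2597 and 2316 CPM in low dose livers. On day 14 it measured 3038 and 3633 CPM in controls and 3385, 2907 and 3076 CPM in low dose livers. All 5 day 14 libraries were above all 6 of day 3. The difference of 0.47 ± 0.15 did not pass (adjusted p 0.102). It passed with DESeq2 (0.53, adjusted p 0.0219), with only the controls and low dose of these days in the fit (0.53, 0.0449) and without control day 3 replicate 3 (0.55, 0.0454). In middle and high dose livers miR-29a-3p rose by 0.63 ± 0.14 (0.00236). Of the 5 family members, 3 passed there, where 32 of all 328 miRNAs (9.76%) passed and 17 (5.18%) were higher. None of the 5 passed over low dose and control, where 6 of 328 (1.83%) did, all lower. DESeq2 called the same 3 over low dose and control, miR-29a-3p, miR-29b-3p (0.44, adjusted p 0.0219) and miR-29c-3p (0.46, 0.0318). With library size alone none of the 3 passed in middle and high dose livers, where miR-29a-3p was at 0.41 (adjusted p 0.0544), and miR-29b-3p lost its call there in 4 of 12 fits that left out a library (0.36 to 0.43). Whether these 2 contrasts differ was not tested.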

How the data were processed

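Rat liver RNA was sequenced as small RNA libraries (Illumina TruSeq kits, per the labels' protocols). The table deposited by the authors holds raw read counts per mature miRNA, unnormalized. The genome build was rn6, per the submitters' processing notes; the sources used here name no aligner or counting program. No coordinates are given, as the reference table is of another assembly. From 763 rows and 35 libraries, filterByExpr (minimum count 10, minimum total 15) kept 328. After TMM scaling, edgeR 4.0.16 under R 4.3.3 fitted 1 mean for each dose and day (12 groups, 23 residual degrees of freedom) and robust quasi-likelihood dispersions. p-values were Benjamini-Hochberg adjusted within each of 9 comparisons. SE was derived from the log2 fold change and its F statistic. Intervals are 95%. Repeat runs of the same sample were summed, for middle dose day 14 replicates 2 and 3 (9665416 and 9407702 counts). Both are among the libraries of the day contrast in middle and high dose livers. Replicates differed by a chi-square per degree of freedom of 41.0 to 258 over 10 pairs, so none was counted as a duplicate.

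The libraries, the 19 lists and the rules for naming miRNAs were chosen with earlier results of these data known. For low dose against control these rules take the 6 smallest p each way at a mean of at least 10 CPM and the 3 smallest below it; for other comparisons, the 6 largest changes each way past the threshold. They add the 10 most abundant miRNAs, 5 injury-linked miRNAs, up to 4 members of each list and the leaders at higher doses. The 7 miRNAs with groups apart on both days were named after their values were seen. Alternatives were DESeq2 1.42.0, other scalings and filters, fewer libraries in the fit, a replicate block and leaving out each library. The edgeR comparison of low dose and control on day 3 was also run on counts simulated from the fitted means and spread of these data. The other comparisons and settings were not run on simulated counts. Figures used matplotlib 3.10.9.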

Additional observations from a re-analysis of the deposited data

Results flagged for a closer look

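The low dose effect on day 7 differed from that on days 3 and 14. The difference itself, day 7 minus the average of days 3 and 14, passed the threshold for 123 of 328 miRNAs (37.5%, edgeR, adjusted p under 0.05), 76 of them higher. A fit without 2 outlying day 7 controls, a setting chosen after seeing the data, leaves a single control library of that day. miR-22-5p measured 155, 131 and 162 CPM in day 7 low dose livers and 11.9, 4.73 and 11.1 CPM in day 7 controls, and its difference of differences was 3.80 ± 0.32 on the log2 scale. The same value was 3.66 for miR-145-5p, 3.28 for miR-191a-5p, 3.21 for miR-365-3p, 3.06 for miR-128-3p and 2.99 for miR-222-3p. On the lower side it was -2.77 for miR-411-5p, -1.82 for miR-136-3p, -1.60 for miR-127-3p, -1.29 for miR-181a-2-3p, -1.27 for miR-455-5p and -1.25 for miR-6329. Without those 2 controls the values of miR-411-5p (-1.79), miR-136-3p (-1.01), miR-127-3p (-1.01) and miR-455-5p (-1.05) were smaller in size. miR-136-3p and miR-127-3p also lost their calls in 5 and 6 of 17 fits that left out a library. The day 7 low dose libraries lay with the middle and high dose libraries on the first principal component. The labels name no batch, so a technical difference and the day cannot be told apart.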

How the results depend on the processing

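Low dose against control gave 0 calls under most settings. On day 3 there was 1 call with only the libraries contrasted in the fit (miR-582-3p) and 0 to 2 when leaving out each library, the 2 being miR-150-5p (-0.79) and miR-871-3p (-6.64) without control day 3 replicate 1. On day 14 leaving out each library gave 0. The average gave 0 to 3, the 3 without control day 14 replicate 2 (miR-195-5p, miR-363-3p and miR-455-3p), and the difference between days gave 0, with 1 call (miR-582-3p) with only the libraries contrasted. Day 14 against day 3 gave 6 calls, and 15 with DESeq2 (7 of them higher), 2 in the low dose alone, 0 in controls alone and 0 to 8 when leaving out each library. The lowest of these were 0 and 1 (miR-195-5p), with replicate 2 or replicate 1 of the day 14 controls left out, and 3 when day 3 control replicate 2 was left out. Over middle and high doses the range was 20 to 39. High against low dose gave 84 to 119 on day 3 and 89 to 117 on day 14. The low dose on day 7 minus days 3 and 14 gave 98 to 147, and 45 without 2 day 7 controls. The higher share there was 61.8%, and 51.5% with DESeq2's size factors. Of 4254 single miRNA values recomputed for low dose against control, 5 passed, and 276 changed sign with neither value past the threshold. The cause of these changes was not tested.

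Whether the replicate numbers pair the libraries is not settled by these data. Correlations of same-numbered low dose and control deviations ran from -0.21 to -0.04 on day 3 (0 of 3 best with its own number). On day 14 they were 0.01 and 0.12 (2 of 3), and low dose replicate 3 has no control of its number. With 2 controls the deviations mirror each other, so these day 14 values cannot decide the question. With the replicate block, day 14 against day 3 gave 1 call (miR-136-5p) over low dose and control and 6 over middle and high doses (4 in the Dlk1-Dio3 cluster, miR-127-3p, miR-376b-3p and miR-434-3p having lost theirs), and low dose against control gave 0 on each day. With 2 controls on day 14, and 3 libraries or fewer per group, a 2-fold change below 10 CPM was mostly outside the reach of these data.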
